A study of Mus musculus with 2 samples.

Results

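The keratins of basal, luminal and proximal duct epithelium, together with Trp63, were examined in the dorsolateral prostate of mice that carry a microRNA transgene. The 10 genes are Krt5, Krt14, Krt15, Krt17 and Trp63 on the basal side and Krt8, Krt18, Krt19, Krt7 and Krt4 on the luminal and proximal side. They were found by matching the RefSeq accession of every non-control probe to these symbols, which gave 13 probes of 41174 and all 10 genes of the 18952 with a symbol. A pool of prostates came from ARR2PB-miR32 transgenic mice and the other from wild type mice. Both were of strain FVB/N, aged 6 months, and each pool held 6 mice. ARR2PB is a composite probasin promoter, active in prostate luminal epithelium and responsive to androgen, so that stromal and immune cells are not its intended site. The pools shared 2 arrays of a single slide, with the transgenic pool labelled Cy3 on array 1 and the dyes swapped on array 2. The arrays repeat 1 pair of pools and make 1 replicate, so genotype could not be tested, and each ± is the SD over the 2 arrays.

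Keratins are intermediate filament proteins that assemble only as pairs of a type I and a type II chain. Basal cells of the prostate, which sit on the basement membrane, carry the pair Krt5 and Krt14 and the transcription factor p63, encoded by Trp63, which is needed for the basal layer. The secretory luminal cells above them carry Krt8 and Krt18, and the ducts near the urethra are richer in Krt4, Krt7 and Krt19.

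The product of the transgene is shown first because it is the only difference that the labels give between the pools. Mature miR-32-5p and its relatives share the seed, bases 2 to 8 from the 5′ end, in capitals below. In RefSeq (GRCm38.p6) 6 mature mouse microRNAs have this seed, of which 3 are shown.
mmu-miR-32-5p: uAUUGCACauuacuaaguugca
mmu-miR-25-3p: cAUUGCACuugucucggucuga
mmu-miR-92a-3p: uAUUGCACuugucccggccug
The endogenous miR-32-5p lies at chr4:56895272-56895293 on the minus strand. These mRNA arrays do not read mature microRNAs, and target sites in keratin transcripts were not analysed here.

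None of the 10 genes was higher or lower by the size rule, which asks both arrays for a ratio of transgenic over wild type past 1.5-fold, the same way. By this rule 0.91% of the 10435 detected genes were higher and 1.3% were lower, 95 and 136 genes. On array 1 alone Krt5 was past 1.5-fold higher and Krt4 past 1.5-fold lower, where 8.1% and 5.35% of detected genes were. On array 2 alone none of the 10 was, where 5.21% of detected genes were higher and 15% lower. With median centring in place of loess, Krt15 was called lower (−1.37). That setting shifted the median of all detected genes to −0.57, and 0.0192% of genes were then called higher and 5.31% lower. In the scanner software's ratios 2.37% were higher and 6.01% lower, with no member among them. A gene was detected when its probe was well above background in the same pool on both arrays, and all 10 genes passed this filter. Of the 10435 detected genes, 10425 passed in the wild-type pool and 6062 in the transgenic pool. Krt17, Trp63 and Krt4 passed only in the wild-type pool. With detection required in both pools, 1.53% of genes were higher and 1.24% lower. Over the 10 genes the median log2 ratio was −0.02, against −0.06 over all detected genes. It was −0.03 for the basal genes and −0.02 for the luminal and proximal keratins. These tissue pools hold many cell types, so fewer cells of a type and less RNA per cell cannot be told apart.

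The Krt8 probes, printed far apart on the array, had unlike ratios. The probe used for Krt8 is in row 109 of 532 and had log2 ratios of −0.14 on array 1 and 0.12 on array 2. The other Krt8 probe, in row 527, had 0.91 and −1.32. Both were well above background in both pools on both arrays. Over all spots well above background in both dyes, split into 10 bands of rows, the median ratio after loess was −0.10 in the first band and 0.39 in the last on array 1. On array 2 it was 0.26 in the first band and −0.68 in the last. Taken as Cy5 over Cy3, the trend fell towards the last rows on both arrays. A second set of ratios was therefore made with a surface over rows and columns removed before loess, a choice made after the data were seen.

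With this position correction the 2 Krt8 probes came closer together. Their gap became 0.11 on array 1 and −0.44 on array 2, against 1.05 and −1.44 with loess alone. Among 32 probes printed 10 times each and well above background in every spot, the median SD of the log2 ratio was 0.099 and 0.22 on arrays 1 and 2, against 0.29 and 0.52 with loess alone. Over all 245 probes printed 10 times it was 0.13 and 0.22 with correction and 0.17 and 0.23 with loess alone, so that array 2 gained little. The surface was itself fitted on bright spots. Pearson's r between the arrays was 0.26 across detected genes, against −0.03 with loess alone, genes not being independent replicates. Values of the 10 genes are given below with loess, the planned setting, and then with the position correction.

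**Figure D1:**
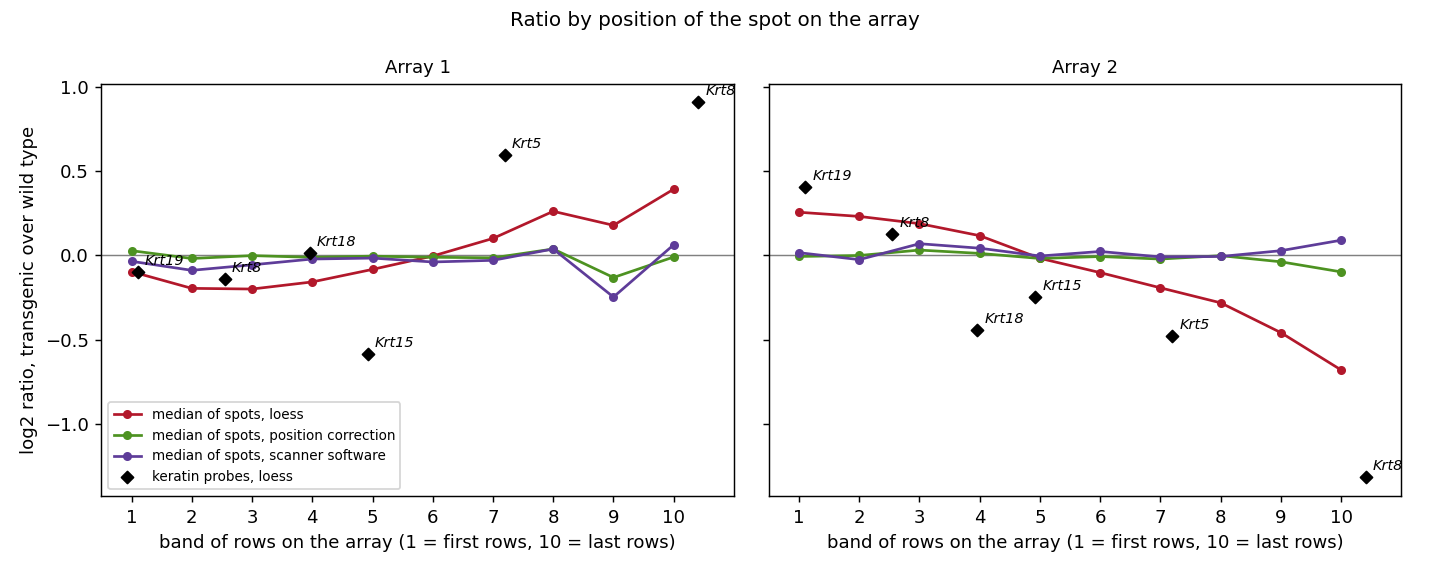
Log2 ratio of transgenic over wild type (y axis) by band of rows on the array (x axis, 10 bands) for array 1 (left) and array 2 (right). Lines are medians over spots well above background in both dyes with loess, position correction and the scanner software's own ratios, and diamonds are the loess ratios of single keratin probes. From the first band to the last, the loess medians run from −0.10 to 0.39 on array 1 and from 0.26 to −0.68 on array 2, and the Krt8 probe of the last rows lies at 0.91 and −1.32.

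Basal genes came first. Krt5, the type II keratin of basal cells, had a scanner-processed signal of 7888 and 5354 in the transgenic pool on arrays 1 and 2, against 5970 and 6479 in the wild-type pool. The transgenic pool was thus the brighter on array 1 and the dimmer on array 2. Its log2 ratios were 0.59 and −0.48 (0.06 ± 0.76), and 0.34 and −0.19 with position correction (0.07 ± 0.37). The mean is smaller than the SD in each case.

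Krt14, the type I partner of Krt5, had processed signals of 420 and 319 in the transgenic pool, against 609 and 441 in the wild-type pool. It was lower in the transgenic pool on each array. The log2 ratios were −0.50 and −0.01 (−0.25 ± 0.35) with loess, and −0.35 and −0.17 (−0.26 ± 0.13) with position correction, where the SD was the smaller. The corrected ratio is 0.833-fold, under the size rule. In the scanner software's ratios Krt14 was at −0.54 and −0.47 (−0.50 ± 0.05). The partners Krt5 and Krt14 had means of opposite sign.

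Krt15, a type I keratin of basal and progenitor cells, had processed signals of 9664 and 9738 in the transgenic pool and 14558 and 8338 in the wild-type pool. The transgenic signals differed little between the arrays, while the wild-type signal of array 1 stood above the other 3. The loess ratios were −0.58 and −0.25, and their mean, −0.42 ± 0.24, was the lowest among the 10 genes. With position correction they were −0.55 and 0.14 (−0.20 ± 0.49), so that the arrays no longer had the same sign.

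Krt17, a type I keratin of basal and stressed epithelia, had processed signals of 466 and 271 in the transgenic pool and 419 and 384 in the wild-type pool. On array 2 its transgenic signal was not well above background. The ratios were 0.32 and −0.38 (−0.03 ± 0.49) with loess and 0.13 and 0.05 (0.09 ± 0.06) with position correction.

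Trp63 had processed signals of 532 and 379 in the transgenic pool and 256 and 432 in the wild-type pool, the transgenic signal of array 2 again not being well above background. Its ratios were 0.53 and −0.16 (0.18 ± 0.49) with loess and 0.18 and 0.22 (0.20 ± 0.03) with position correction. The corrected ratios lay close together, at 1.15-fold. Trp63 was at 1.06 and −0.19 (0.44 ± 0.88) in the scanner software's ratios, which carry no offset. The offset of 50 in the loess and corrected values draws the ratios of weak spots such as Trp63 and Krt17 towards 0. A second Trp63 probe passed background only on array 1 and only for the transgenic pool, and did not count as detected. Which p63 isoforms the probes read was not analysed here.

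**Figure D2:**
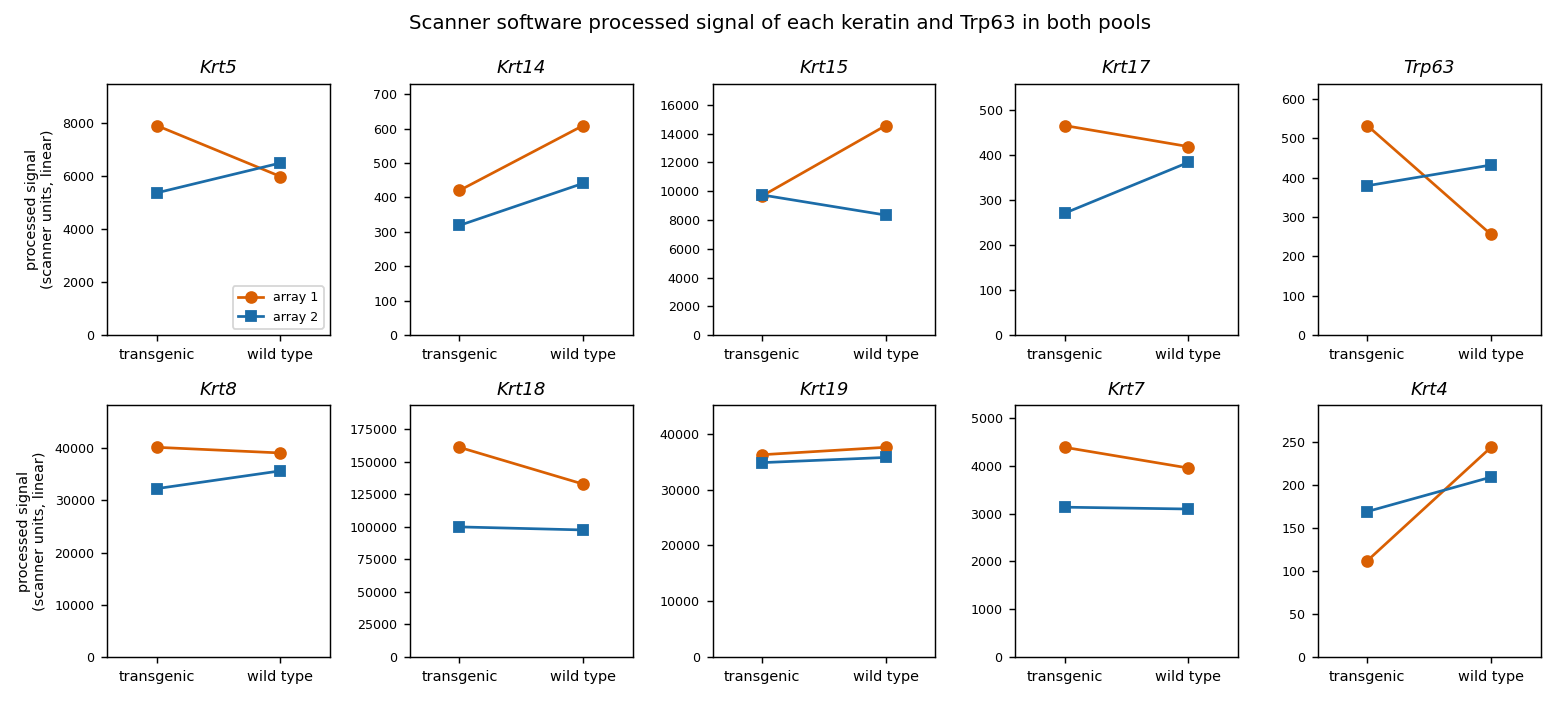
Processed signal of the scanner software (y axis, linear scanner units from 0) of each keratin and of Trp63 in the transgenic pool (left) and the wild-type pool (right). Each line joins the pools on 1 array. Krt14 and Krt4 slope the same way on both arrays and are lower in the transgenic pool, as is Krt19. Krt18 and Krt7 are higher on both, and Krt5, Krt15, Krt17, Trp63 and Krt8 slope in opposite ways.

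Luminal keratins followed. Krt8, the type II keratin of luminal cells, had processed signals of 40179 and 32255 in the transgenic pool and 39095 and 35660 in the wild-type pool. Its mean log2 ratio was −0.01 ± 0.19 with loess, and 0.05 and 0.03 on the arrays with position correction (0.04 ± 0.01). The second Krt8 probe had 40160 and 26227 in the transgenic pool and 34341 and 30188 in the wild-type pool, with a corrected mean of −0.13 ± 0.40. Neither probe departs from 0 by more than its SD with loess.

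Krt18, the type I partner of Krt8, had processed signals of 160906 and 99786 in the transgenic pool and 132659 and 97445 in the wild-type pool. The loess ratios were 0.01 and −0.45 (−0.22 ± 0.32) and the corrected ones 0.21 and 0.06 (0.13 ± 0.11), so the sign of the mean turned. Krt18 was the only one of the 10 genes whose mean moved by more than its SD over the arrays under the position correction, in the scanner software's ratios (0.16) and in the authors' deposited table (0.14).

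Among the keratins of proximal ducts, Krt19, a type I keratin of simple epithelia, had processed signals of 36300 and 34879 in the transgenic pool and 37634 and 35811 in the wild-type pool. Its ratios were −0.10 and 0.40 (0.15 ± 0.35) with loess and −0.01 and 0.10 (0.04 ± 0.07) with position correction.

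Krt7, a type II keratin of duct epithelia, had 4395 and 3139 in the transgenic pool and 3961 and 3101 in the wild-type pool. Its used probe was at −0.02 ± 0.12 with loess and 0.07 ± 0.09 with position correction. A second Krt7 probe read 310 and 254 in the transgenic pool and 438 and 451 in the wild-type pool, and was lower on each array, at −0.36 ± 0.11 with loess and −0.39 ± 0.23 with position correction. The Krt7 probes thus disagreed by −0.34 in mean log2 ratio, or −0.46 after correction, and unlike the Krt8 probes they did not come closer. The cause was not tested.

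Krt4, a type II keratin of stratified mucosa and of proximal luminal cells, had processed signals of 112 and 169 in the transgenic pool and 243 and 209 in the wild-type pool. It was lower on both arrays on this scale, and its transgenic signal on array 2 was not well above background. The loess ratios were −0.67 and 0.13 (−0.27 ± 0.56), and the corrected ones −0.55 and −0.06 (−0.31 ± 0.35). In the scanner software's ratios, which carry no offset, it was at −1.13 and −0.31 (−0.72 ± 0.58). The offset of 50 added to both dyes draws the ratios of such weak spots towards 0.

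**Figure D3:**
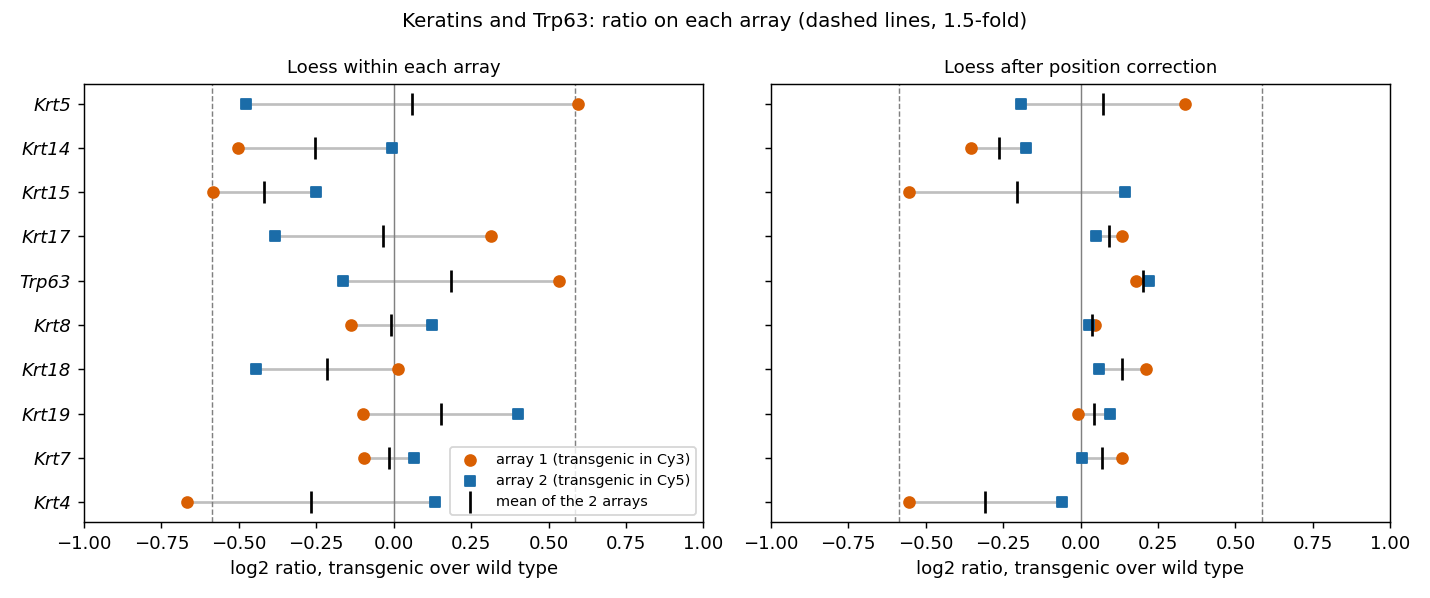
Log2 ratio of transgenic over wild type (x axis) of each keratin and of Trp63 on array 1 (circles) and array 2 (squares) with the mean of both (bars), after loess (left) and after loess with position correction (right). Dashed lines mark 1.5-fold. With loess Krt5 reaches 0.59 and Krt4 −0.67 on array 1, and with position correction all 10 genes lie within the dashed lines on both arrays.

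The position correction brought the arrays closer for all of the 10 genes but Krt15, whose arrays lay 0.70 apart with it, more than for any other of the 10. The median absolute difference between the arrays was 0.14, against 0.50 with loess, and over all detected genes it was 0.26, against 0.40 with loess. The arrays had the same sign for 7 of the 10 genes with correction and for 2 with loess, while 57.3% and 45.4% of all detected genes did. In the scanner software's ratios 5 of the 10 genes had the same sign, and 58.7% of all detected genes. The median absolute difference there was 0.45 for the 10 genes and 0.42 over all detected genes. The exceptions after correction were Krt5, Krt15 and Krt19. Corrected means ranged from −0.31 (Krt4) to 0.20 (Trp63), and all 10 genes lay within 1.5-fold on each array, as did 83.5% of detected genes. By the size rule no member was called with correction either, where 0.824% of detected genes were higher and 1.12% lower.

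The balance of basal and luminal genes was then compared within each array. The basal median minus the luminal median was 0.41 on array 1 and −0.37 on array 2 with loess, and −0.02 on the mean of the arrays. The arrays thus gave opposite answers of similar size. With position correction the basal medians were 0.13 and 0.05 and the luminal ones 0.05 and 0.03, and the difference on the mean of the arrays was 0.03. Other settings gave −0.13 (the scanner software's ratios), −0.20 (the authors' deposited table, 7 of the genes), −0.24 (genes detected in both pools, the same number), 0.11 (median centring) and 0.15 (averaging probes), so the sign was not settled.

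The rest of the keratin family was then counted. Of 21 keratins of skin and internal epithelia, 17 were on the array and 6 were detected, and none passed the rule (median −0.09). Krt23, a type I keratin, was at −0.67 ± 1.45 (0.36 and −1.70), and Krt78 at 0.32 ± 1.14 (1.12 and −0.49), each with opposite signs on the arrays. Krt78 was past the rule in the scanner software's ratios, with 1.46 and 1.02. Its transgenic signal was well above background on 1 of 2 arrays, and its ratios with position correction were 0.85 and −0.31. None of 14 hair follicle keratins on the array was detected.

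Genes that anchor keratin filaments also stayed under the rule. Of 24 desmosome and hemidesmosome genes 19 were detected and 0 were called, with a median of −0.14, and −0.13 with position correction. The lowest were Pkp2, a desmosomal plaque protein, at −0.51 ± 1.08 (−0.52 ± 0.36 with position correction) and Plec, which links filaments to hemidesmosomes, at −0.43 ± 0.29 (−0.24 ± 0.41 with position correction, with opposite signs on the arrays). Other detected Plec probes had loess means of −0.31 and 0.63, so the Plec probes disagreed in sign. The transgenic signal of the used Plec probe was well above background on 1 of 2 arrays. Of 16 other intermediate filament and lamin genes 6 were detected and none was called. Des, the muscle filament desmin, was at −0.48 ± 0.10 and Nefl, a neurofilament subunit, at −0.47 ± 0.17. Nefl was called lower in the scanner software's ratios, at −0.75 and −1.98. It passed detection only through the wild-type pool, where it is high, its transgenic signal being well above background on 1 of 2 arrays.

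Of 35 p63 relatives, partners and reported targets, 22 were detected, 1 was lower and 21 were neither (median −0.04). The lower gene was Hes1, a transcription factor downstream of Notch, at −0.59 and −0.75 (−0.67 ± 0.11). It was at −0.50 ± 0.04 with position correction, where its call ended. Its transgenic signal was well above background on 1 of the 2 arrays. In the scanner software's ratios 4 were lower, namely Hes1 with Klf5, Ripk4 and Dlx5, the last 3 named after their values were seen. The transgenic signals of these 3 were also well above background on 1 of 2 arrays. All 4 thus passed detection only through the wild-type pool, where they are high. With loess, no gene of this list was lower among genes detected in both pools.

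Non-keratin markers of the same epithelial cells held 4 calls. None of 11 detected basal markers passed the rule (median −0.13), the lowest being Dkk3, a secreted Wnt modulator, at −0.65 ± 0.34 (−0.67 ± 0.12 with position correction). Dkk3 was called lower in the scanner software's ratios, at −1.49 and −2.74, its transgenic signal being well above background on 1 of 2 arrays. All 20 luminal markers listed were detected, with a median of −0.14. Slc12a2, a sodium, potassium and chloride cotransporter, was lower at −1.26 and −1.08 (−1.17 ± 0.13), and at −1.08 ± 0.03 with position correction. Hoxb13, a prostate homeobox gene, was lower at −0.69 ± 0.02 and lost its call with position correction (−0.60 ± 0.03). Of 9 detected proximal duct markers, Ly6a, which encodes Sca-1, was lower at −1.55 ± 0.66 (−1.24 ± 0.06 with position correction). Ltf, the lactoferrin gene, was lower at −0.78 ± 0.12 (−0.79 ± 0.04 with position correction). Ltf passed detection only through the wild-type pool, where it is high, and among genes detected in both pools 1 proximal marker was lower. With the correction Cldn10 among luminal markers (−0.78 ± 0.06) and Cyp2f2 among proximal markers (−1.02 ± 0.53) were also called lower, both named after their values were seen. Among the keratins of proximal ducts, the corrected means were 0.04 for Krt19, 0.07 and −0.39 for the Krt7 probes, and −0.31 for Krt4.

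Squamous, urothelial and seminal vesicle genes were examined because they share keratins with the prostate. Of 17 genes of squamous differentiation 2 were detected, Sprr2a1 at 0.27 ± 0.37 and Sbsn at 0.22 ± 0.52, and none was called. Of 5 uroplakins 3 were detected and none was called, with Upk1a at −0.27 ± 0.81 and Upk1b at 0.13 ± 0.25. Ceacam10, the single detected seminal vesicle product of 8 on the array, was lower at −1.36 ± 0.14 (−1.33 ± 0.64 with position correction). It passed detection only through the wild-type pool, where it is high, its transgenic signal being well above background on 1 of 2 arrays.

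Markers of other cell types were counted in the same way. Of 12 detected immune markers 5 were lower and 11 had means below 0 (median −0.68, and −0.57 with position correction). In the scanner software's ratios 9 were lower, with a median of −1.61. The genes lower with loess included Cd74, the invariant chain, at −2.09 ± 0.47 and the MHC class II gene H2-Aa at −1.99 ± 0.02. Jchain, of secreted IgA, was among them at −1.94 ± 0.16 (−1.77 ± 0.79 with position correction). Of 7 detected adipocyte markers 5 were lower, with a median of −1.63, and −1.64 with position correction. Only 4 of the 12 immune and 3 of the 7 adipocyte markers passed detection through the transgenic pool. The others passed only through the wild-type pool, where they are high, apart from Cd3e (0.12 ± 0.26). Among genes detected in both pools 3 immune and 2 adipocyte markers were lower. Processed signals were summed over all detected markers, so the sums favour the wild-type pool, through which most of these genes were selected. Sums over genes detected in both pools were not made. The adipocyte markers summed to 8520 and 4017 in the transgenic pool, against 32641 and 23406 in the wild-type pool. The immune markers summed to 7045 and 5872 in the transgenic pool, against 26906 and 23193 in the wild-type pool. None of 8 smooth muscle (median −0.04), 8 fibroblast (−0.29) and 7 endothelial markers (−0.02) passed the rule. Their part in the keratin values was not tested.

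**Figure D4:**
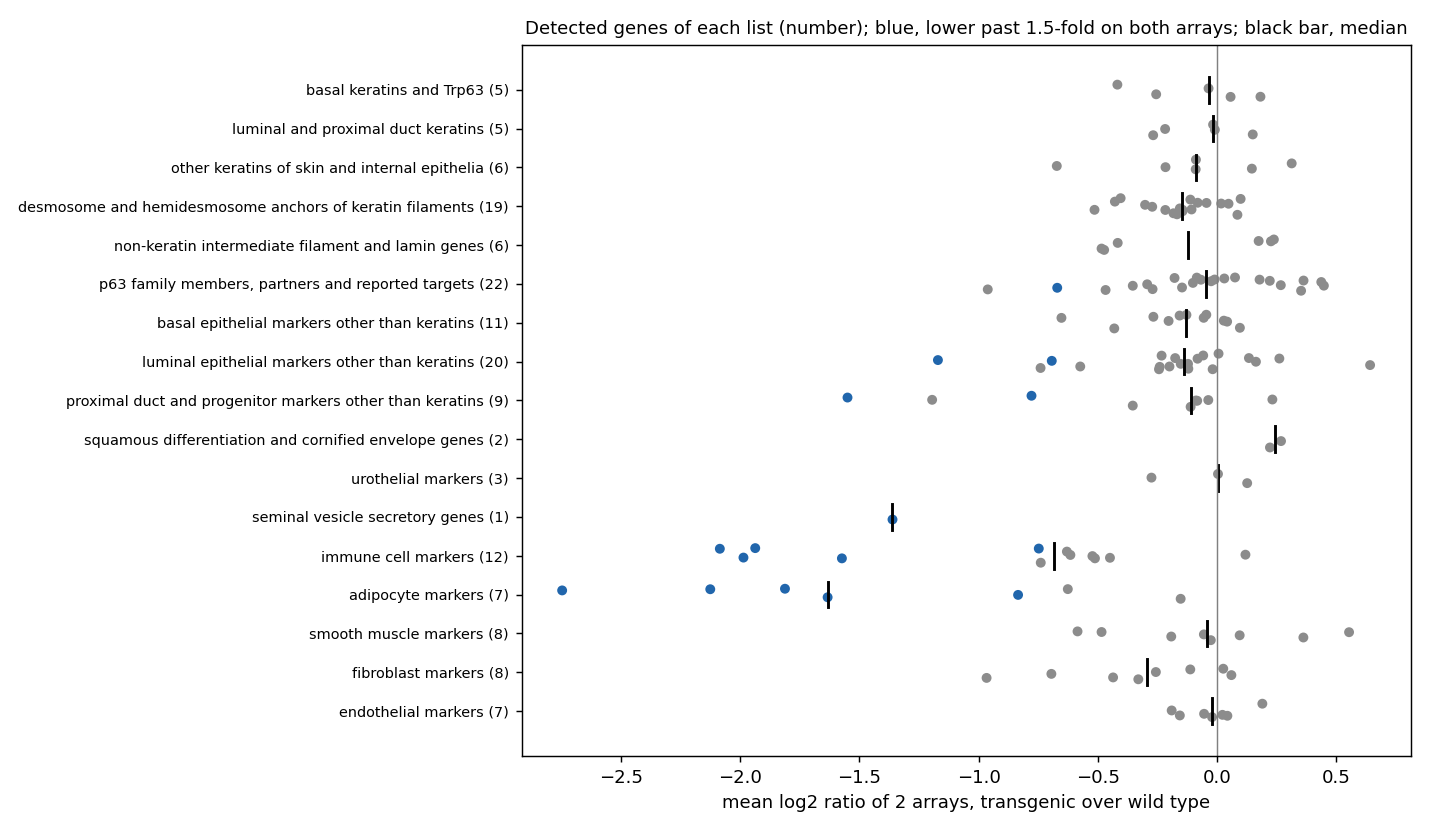
Mean log2 ratio of transgenic over wild type over the 2 arrays (x axis, loess) of every detected gene of each list (rows, with the number detected). Blue points passed 1.5-fold lower on both arrays, grey points did not pass, and black bars are list medians. The keratin lists are centred at −0.03 and −0.02, and the adipocyte list at −1.63.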

How the data were processed

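Total RNA, 100 ng, was labelled, per the labels' protocols, and hybridised to Agilent arrays read in 2 colours. The deposited spot and background signals are median pixel intensities, per the file headers (Feature Extraction 11.0.1.1). Processed signals are deposited intensities after the scanner's background subtraction, detrending and dye normalization, per the file headers. Log ratios (log10, Cy5 above Cy3) come from the same software, per the file headers. The authors' deposited table of 8533 rows is in log2 units, and matched the scanner ratios turned to transgenic over wild type up to a constant on each array (r and slope of 1), each column of the table having a median of 0. The filter behind it was not given in the sources used here.

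With limma 3.58.1 in R 4.3.3, signals were corrected by normexp (offset 50), loess-normalized with control and outlier spots at weight 0, turned to transgenic over wild type by the labelled dyes, and averaged per probe. Probes were named through RefSeq accessions (27816 of 41174 matched). A gene took its brightest detected probe. The position correction removed a local regression surface (span 0.15) of the log2 dye ratio, fitted on the brightest 0.25 of spots, before the offset was added. No p-values were computed. The arrays had Cy5 signals well above background at 42.1% and 21.1% of spots and Cy3 signals at 58.3% and 57% (arrays 1 and 2), no saturated spot, and their number limits precision. The size rule was checked on simulated spots without a trend over rows, so that check does not cover the trend seen on these arrays. In other lists, called genes (up to 4), or else the 2 furthest from 0, could be named, not all of which are printed. The genes and lists were chosen with earlier results of these data known. Other tools were Python 3.11.15, pandas 2.3.3, numpy 2.4.6 and matplotlib 3.10.9.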

Additional observations from a re-analysis of the deposited data

How the results depend on the processing

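No paired analysis was possible because the 2 arrays repeat 1 pair of pools. Median centring moved the basal median to −0.78 and the luminal and proximal median to −0.89, with 1 member lower (Krt15) and all detected genes at a median of −0.57. Averaging probes moved the luminal and proximal median to −0.19. Leaving out either array gave 0 to 1 member higher, 0 to 1 lower, a basal median of −0.25 to 0.32, a luminal and proximal median of −0.10 to 0.12, and a basal minus luminal difference of −0.37 to 0.41. Under the other alternatives no member was called. Among lists without a call, median centring gave 1 lower gene each for the basal, intermediate filament, desmosome, urothelial and fibroblast lists. For the basal list an offset of 16 gave 1 lower gene. The authors' deposited table gave 1 each for the intermediate filament and smooth muscle lists. Des is in both of the latter lists, so these calls may be 1 gene.

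Over all 10435 detected genes, 95 were higher and 136 lower (0.91% and 1.3%). An offset of 16 gave 149 and 240 (1.43% and 2.3%), median centring 2 and 554, and the scanner software's ratios 247 and 627. The authors' deposited table of ratios gave 178 and 119 of 6127 genes (2.91% and 1.94%). Genes detected in both pools gave 94 and 76 of 6133 (1.53% and 1.24%). A 2-fold rule gave 25 and 37, array 1 alone 845 and 558, and array 2 alone 544 and 1569. Signal over background limited Krt17, Trp63 and Krt4, whose transgenic signal passed it on 1 of 2 arrays. These 3 are not among the 7 members in the authors' deposited table.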
